A study of Caenorhabditis elegans with 4 samples.

Results

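Whole worms of the *Caenorhabditis elegans* *prg-1* mutant (strain wm161) at the fourth larval stage (L4) were compared with worms of the same mutant at the first larval stage (L1). A gene was measured when its estimate had the status OK in both libraries and it reached at least 1 FPKM (fragments scaled to the length of the transcript and to the mapped fragments of the library) in one of them, which held for 15655 of 46096 listed genes. Of the others, 29875 were below 1 FPKM in both libraries, including 25186 listed at 0 in both, and the rest had a failed or low-data estimate. The series holds 4 such libraries, L1, L2, L3 and L4, with 1 library per stage, so there is no replicate check of any difference and no p-value was computed. All worms carried the *prg-1* mutation, were fed OP50 at 20°C, and gave RNA selected by its poly(A) tail. Wild-type worms were not analysed here, so no difference below can be assigned to the mutation.

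*C. elegans* hatches as an L1 larva with its nervous system, muscles, gut and epidermis in place and a gonad primordium of a few cells. Across the larval stages it replaces its collagen cuticle at each molt, the germline proliferates and enters meiosis, and the vulva, uterus and other adult structures form, with spermatogenesis beginning in late larval life. The heterochronic pathway, in which RNA-binding proteins, transcription factors and small RNAs succeed each other, times these events in the epidermis. PRG-1 is the Piwi Argonaute that binds the 21U-RNAs, the piRNAs of the worm. Because each library is made from whole worms, fewer cells of a type and less RNA per cell cannot be told apart.

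A gene was called higher or lower at L4 when log2((FPKM + 1) at L4 / (FPKM + 1) at L1) was at least 1 in size and the 95% intervals that the authors' program gave for the 2 values did not overlap. Differences on this scale are named log2 differences below and understate the change of genes at low levels. By this rule 1470 genes (9.39% of those measured) were higher at L4 and 670 (4.28%) were lower, 2140 in either direction (13.7%). Among the 13363 measured protein-coding genes 1383 (10.3%) were higher and 623 (4.66%) lower. The intervals alone, without a minimum size, stood apart for 2468 genes higher at L4 (15.8%) and 3028 lower (19.3%). The genes called higher differed more, with a median log2 difference of 1.75 against -1.30 for those called lower, and 576 of them reached 4-fold against 81. The median over all measured genes was -0.09, and rescaling by the median ratio of the libraries would add 0.11 to the log2 ratio of FPKM, and less to the log2 difference of genes at low levels. T02B5.3 stood just inside the rule at a log2 difference of 1.00 (8.16 FPKM at L4, 3.58 at L1) and F37A4.5 just outside (1.21 and 0.106), while *flp-19* stood just inside on the lower side (32.1 and 65.3) and W04A8.4 just outside (10.2 and 21.4).

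**Figure D1:**
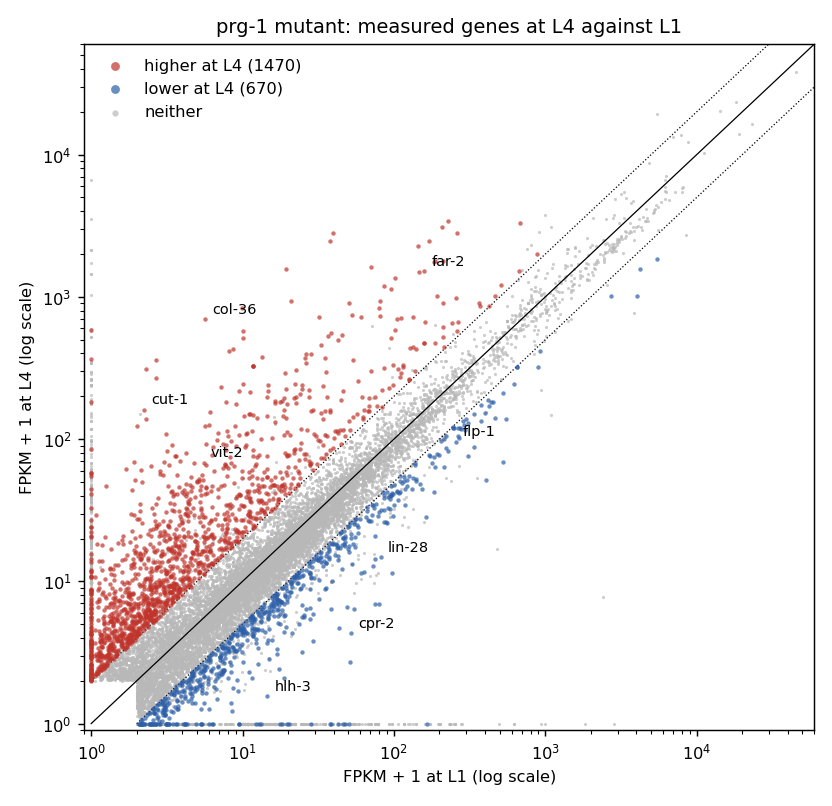
FPKM + 1 of each of the 15655 measured genes in the L4 library (vertical, log scale) and the L1 library (horizontal, log scale). Red points are the 1470 genes called higher at L4, blue points the 670 called lower and grey points neither. The solid line marks equal values and the dotted lines a log2 difference of 1 in each direction. The red points spread farther from the equal line than the blue ones, and grey points on an axis are genes listed at 0 in one library whose intervals overlapped.

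The interval of a value covers counting and assignment of fragments within its library. How much separate cultures of worms vary was not measured. The depths of the libraries were close, with 1.05 times as many fragments at L4 as at L1 by the commonest ratio of values below 1 FPKM. In 2885 measured genes, many of them short, the FPKM lay outside its own interval in at least one library, among them 359 of the genes called higher and 153 of those called lower. Values printed with their interval show this directly. Some genes called and named below without one had such a value too, besides those marked so in the text. Leaving aside non-coding genes that lie over coding ones, these were *col-45*, *col-102*, *col-114*, *dpy-4*, *dpy-13*, *cut-2*, *grd-5*, *grl-9*, *pqn-54*, *lin-42*, *nlp-24*, *nlp-33*, *unc-27*, *gst-10* and *far-6* among the higher. Among the lower they were *nas-3*, *nlp-17*, *cnc-2*, *linc-37*, *tni-1*, F44E5.4 and F44E5.5. All markers for the germline (6), intestine (2), body wall muscle (3), neurons (4) and epidermis (3) reached 1 FPKM in both libraries. Summed over each list, germline markers stood at 154.2 FPKM at L4 against 35.8 at L1, and neuronal markers at 417.1 against 721.9. Epidermal markers summed to 549.5 against 245.3 but differed in direction. *rol-6* had 358 FPKM (288 to 313) at L4 against 52.9 (40.6 to 50.6) at L1, and *dpy-7* had 142 against 110. *elt-3* had 49.4 (44.6 to 54.3) against 82.8 (75.9 to 89.8). Of 11 embryo markers none reached 1 FPKM at L4 and 1 (*med-2*) did at L1, where it had 1.53 FPKM (0.341 to 2.56) against 0.265 at L4. Of 7 male markers 2 reached 1 FPKM at both stages, *mab-3* and F44E2.11 (*plg-1* in RefSeq), while *lov-1*, *cwp-1* and *cwp-2* were listed at 0 at L4 and *cwp-1* at L1.

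*prg-1* itself had 23.6 FPKM (21.6 to 25.6) at L4 and 11.02 FPKM (9.71 to 12.3) at L1, a log2 difference of 1.03 that passed the rule narrowly and fell just short of it when each library was scaled to the same total. Since both libraries are mutant and the value covers the whole gene, it does not check the genotype. *prg-2*, the other Piwi gene, is listed as a pseudogene in the annotation used here. It had 19.5 FPKM (16.7 to 20.8) at L4 and 4.90 FPKM (3.89 to 5.86) at L1, a log2 difference of 1.80. Whether fragments were shared between *prg-1* and *prg-2* was not tested. The intervals of the stages did not overlap for either gene.

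Among protein-coding genes with a symbol, cuticle genes held the largest differences in favour of L4. The *col* genes encode the short collagens of the cuticle, and 98 of the 138 measured (160 listed) were higher at L4 and 1 was lower, against 9.39% and 4.28% over all measured genes, with a median log2 difference of 1.88. *col-36* had 697 FPKM (557 to 597) at L4 against 4.68 (2.92 to 6.17) at L1, a log2 difference of 6.94, the largest of any measured protein-coding gene. *col-84* had 267 FPKM (256 to 281) at L4 against 1.68 (0.943 to 2.52) at L1. *col-43* had 831 FPKM (653 to 691) against 8.95 (5.86 to 10.2), and *col-158* had 432 (359 to 384) against 7.58 (5.29 to 9.18). In each of these genes the L4 interval lay far above that at L1. *col-102*, *col-114* and *col-45* had 137, 61.0 and 67.8 FPKM at L4 and 1.29, 0.704 and 0.913 at L1. Many short collagen genes lay outside their intervals, and of the members that did not, 42 were still called higher. The most abundant collagens differed little by comparison, *col-117* with 4759 FPKM at L4 and 3782 at L1 and *col-10* with 4957 and 3388, both below the size of the rule. *col-74* was the single *col* gene lower at L4, at 0.288 FPKM (0 to 0.546) against 1.62 (0.821 to 2.38), and it lost its call under both other scalings.

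Most collagens that set body shape were higher too, 11 of 19 measured (20 listed), with 2 lower and a median log2 difference of 1.30. *dpy-4* had 3409 FPKM at L4 and 227 at L1, *dpy-13* had 2484 and 170.1, *sqt-3* had 1784 and 209, and *rol-8* had 835 and 78.8. *dpy-14* had 0.406 FPKM (0.0816 to 0.653) at L4 against 4.59 (2.75 to 5.84) at L1, and *dpy-17* had 1.29 (0.645 to 2.03) against 3.79 (2.53 to 5.05), so these members were the exceptions and were low in both libraries. Genes that fold and process collagen were called higher at a share near that over all measured genes, 7.14% against 9.39%. Of 14 measured (16 listed) 1 was higher, the Kunitz-type inhibitor gene *bli-5*, at 3.56 FPKM (1.53 to 4.74) against 0.441 (0 to 0.881). Without a minimum size, the L4 interval lay wholly above that at L1 in 8 of the 14 and wholly below in 2. Over all measured genes these shares were 15.8% and 19.3%. The disulfide isomerase *pdi-2* had 1709 FPKM at L4 and 1912 at L1, and the prolyl hydroxylase *dpy-18* had 108 and 75.9.

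In the list of zona pellucida cuticlins and related matrix genes, 8 of 32 measured (41 listed) were higher and 1 was lower. *cut-1* had 160.4 FPKM (136 to 154) at L4 against 1.24 (0.686 to 1.75) at L1, *cut-2* had 908 against 49.6, and *cut-6* had 7.95 against 0.379. The abundant apical matrix genes *noah-1* (264 FPKM at L4, 223 at L1) and *noah-2* (246 and 182) were not called. The lower member was *dyf-7*, which anchors the dendrite tips of sensory neurons, with 0.272 FPKM (0.0481 to 0.481) at L4 against 1.54 (0.962 to 2.13) at L1. It stood at the edge of the rule and lost its call under both other scalings.

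Molting genes and astacin metalloproteases were also higher more often than lower. Of 22 molting genes, all measured, 7 were higher and none lower. *mlt-10* had 144 FPKM (127 to 139) at L4 against 13.5 (11.2 to 14.5) at L1. *nas-37*, the metalloprotease needed to shed the old cuticle, had 27.3 (25.1 to 29.5) against 4.62 (3.76 to 5.49), and *nas-36* had 11.6 against 0.912. *mlt-8* had 291 FPKM at L4 and 111 at L1 but was listed at 0 at L2 and L3, which can be a failed estimate. Of the 7 higher molting genes, 6 had the status OK in all libraries. *mlt-11*, a protease inhibitor of the molting cycle, was high in both libraries, with 162 FPKM at L4 and 131 at L1, and was not called. Of the astacin metalloproteases 16 of 25 measured (40 listed) were higher and 1 was lower. *nas-15* had 49.9 FPKM at L4 and 4.16 at L1, *nas-38* had 22.7 and 1.69, and *toh-1* had 33.6 and 6.80, while *nas-3* was lower, at 11.8 against 32.8.

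The hedgehog-related and patched-related genes, a family that is greatly expanded in nematodes and is active in the epidermis around molts, gave 42 higher and 0 lower of 73 measured (89 listed), with a median log2 difference of 1.46. By name the ground-like *grl* genes gave 18 of 23 measured, the groundhog *grd* genes 8 of 13, the warthog *wrt* genes 6 of 9, and the patched-related *ptr* genes 8 of 22. *grl-19* had 40.1 FPKM (20.3 to 30.4) at L4 and was listed at 0 at L1. *grl-17* had 46.0 FPKM (41.7 to 50.2) at L4 against 0.247 (0 to 0.555) at L1, and *grl-9* had 59.8 against 1.13. At higher levels *grl-16* had 459 FPKM (446 to 477) against 32.2 (29.2 to 35.2) and *grd-5* had 497 against 42.0. *grd-10*, at 238 FPKM at L4 and 285 at L1, was an abundant member that was not called.

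The *abu* and *pqn* genes encode proteins with repeats rich in glutamine, asparagine or cysteine, and several *abu* products line the pharyngeal cuticle. Of 68 measured (80 listed) 27 were higher and 3 lower, while the median log2 difference was -0.11, and the members split by name. All 12 measured *abu* genes (15 listed) were higher, against 15 of 56 *pqn* genes. *abu-14* had 340.4 FPKM (329.9 to 355) at L4 against 25.2 (22.4 to 28.1) at L1, *abu-6* had 64.3 against 2.26, and *pqn-54* had 80.9 against 2.19. *pqn-75* was lower, with 6.51 FPKM (5.17 to 7.84) at L4 against 31.1 (28.0 to 34.2) at L1. The most abundant members by mean level, *pqn-94* with 261 and 507 FPKM and *pqn-59* with 349.8 and 418 at L4 and L1, were not called.

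**Figure D2:**
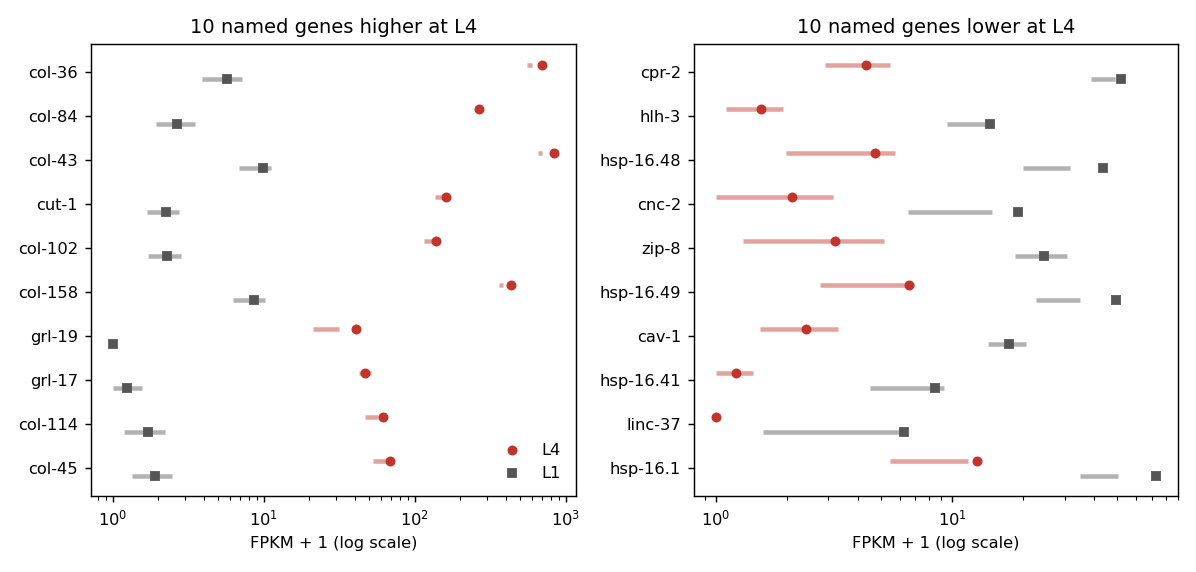
FPKM + 1 (log scale) of the 10 genes with a symbol that had the largest log2 difference in each direction, with the L4 value (red circles) above the L1 value (grey squares) and the interval of each as a bar. In every gene the intervals of the stages are apart, and points to the right of their own bar are values above their own interval, as for *col-36* and *hsp-16.1*.

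Joined together, the lists of collagens, cuticlins, hedgehog-related genes and astacins held 287 measured genes, of which 175 were higher and 5 lower. These genes are named cuticle genes for short, though a role of each in the cuticle was not examined. They supplied 11.9% of all genes called higher. In 75 of the 175 the FPKM lay outside its interval. The L4 and L1 libraries are the ends of a course that was not steady for these genes. Over the 175, the median log2 difference from L1 was 2.15 at L2, 1.33 at L3 and 2.44 at L4. Of these, 150 were higher at L2 than at L3. Only 86 of the 175 had their highest value at L4. For the *col* genes, the summed level was 28369.8, 65042, 51914 and 64636 FPKM from L1 to L4, and 3 of the 98 higher members stood in stage order. *abu-14* had 25.2, 635, 210.1 and 340.4 FPKM from L1 to L4. The 10 named genes with the largest differences were another kind, each far higher at L4 than in any other library, as with *col-36* at 4.68, 39.3, 22.4 and 697 FPKM from L1 to L4. The hours at which worms of each stage were collected were not found in the labels or methods, so stage and position in the molting cycle cannot be told apart.

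Germline genes were higher at L4 in the lists for P granules, meiosis, RNA-binding regulators and Argonautes, and no member of those lists was lower. P granules are the RNA and protein bodies of germ cells, and 7 of 9 measured components (11 listed) were higher, with a median log2 difference of 1.42. The Vasa-like helicase *glh-1* had 74.5 FPKM (66.1 to 74.7) at L4 against 13.5 (11.3 to 14.7) at L1. *glh-2*, *glh-3* and *glh-4* had 5.19, 3.08 and 5.95 FPKM at L4 against 1.33, 0.896 and 1.60 at L1. The scaffold gene *pgl-1* had 26.4 (24.1 to 28.7) against 6.69 (5.58 to 7.80), *pgl-3* had 7.67 against 1.48, and *deps-1* had 14.5 against 3.99. *pgl-2*, at 2.59 and 2.19 FPKM, was not called, and the embryonic P granule genes *meg-1* and *meg-2* stayed below 1 FPKM at both stages.

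Of the genes for the meiotic axis and synapsis, 18 of 30 measured (31 listed) were higher and none lower, with a median log2 difference of 1.23. The meiotic cohesin *rec-8* had 10.9 FPKM (8.82 to 14.1) at L4 against 1.69 (0.514 to 3.76) at L1, the synaptonemal complex gene *syp-4* had 8.17 (6.44 to 9.64) against 1.55, and the axis gene *htp-3* had 8.64 (7.02 to 10.1) against 1.88 (1.30 to 2.44). All of these were at low levels, and 8 of the 18 remained when 5 FPKM was asked in one stage. *rad-51*, the recombinase that also repairs DNA in dividing cells, had 10.3 FPKM at L4 and 8.77 at L1 and was not called, nor was *him-17* (15.9 and 17.4).

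Of 32 germline RNA-binding regulators, all measured, 11 were higher and none lower. *fog-1*, a CPEB-type protein that directs germ cells to sperm, had 16.7 FPKM (14.1 to 18.5) at L4 against 3.08 (2.28 to 3.88) at L1. *daz-1*, a DAZ family protein needed for oogenesis, had 33.0 (27.8 to 34.3) against 7.58, and *rnp-8* had 13.6 (11.6 to 15.2) against 2.44 (1.77 to 3.10). The most abundant members are used in many tissues and differed little, *car-1* with 178 FPKM at L4 and 172 at L1 and *larp-1* with 149 and 152. Among the Argonautes 8 of 18 measured (23 listed) were higher and none lower. *csr-1* had 39.6 FPKM (37.2 to 42.2) at L4 against 8.64 (7.58 to 9.70) at L1, *ppw-2* had 38.6 against 8.25, and *wago-1* had 29.8 against 6.86. The microRNA Argonautes *alg-1* (50.5 and 61.6 FPKM) and *alg-2* (23.0 and 32.4) were somewhat lower at L4 but did not reach the size of the rule.

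In the list for germline proliferation and Notch signalling, 3 of 11 measured (12 listed) were higher and 1 lower. The Notch receptor *glp-1*, which keeps germ cells in mitosis, had 7.80 FPKM (6.96 to 8.63) at L4 against 1.48 (1.11 to 1.83) at L1. Its target *sygl-1* had 22.2 (13.9 to 20.9) against 6.90 (3.77 to 8.15), and the Pumilio-type repressor *fbf-2* had 5.26 (4.18 to 6.30) against 1.39 (0.937 to 1.87). The other target, *lst-1*, had 18.5 and 17.1 FPKM and was not called. The ligand gene *lag-2*, expressed in the distal tip cell and elsewhere, went the other way, with 1.61 FPKM (0.843 to 2.32) at L4 against 11.7 (8.43 to 13.5) at L1. The second receptor *lin-12* (4.98 and 3.52 FPKM), the ligand *apx-1* (2.92 and 3.08), the transcription factor *lag-1* (10.4 and 13.7) and the presenilin-complex genes *sel-12* (11.4 and 13.2), *hop-1* (3.22 and 1.88) and *aph-1* (11.5 and 20.5) were not called, and *arg-1* was below 1 FPKM in both libraries.

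Of the 5 innexins that join the gonadal sheath to germ cells, 4 were higher at low levels. The sheath subunits *inx-8* and *inx-9* had 1.98 and 2.98 FPKM at L4 against 0.465 and 0.244 at L1, and the germ cell subunits *inx-21* and *inx-22* had 4.07 and 3.88 against 1.35 and 1.23. The most abundant, *inx-14*, had 6.36 FPKM (5.19 to 7.53) at L4 and 8.58 (7.19 to 9.95) at L1 and was not called. Of 18 measured sex determination genes (21 listed) 4 were higher and none lower, among them *fog-3* at 5.59 FPKM (3.47 to 6.77) against 0.923 (0.365 to 1.46) and *mab-3* at 4.88 (3.57 to 6.18) against 1.07 (0.394 to 1.74). *tra-2* (16.3 and 20.5 FPKM) and *fem-1* (30.6 and 21.8) were not called.

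Most germline genes called higher differed late in the course. Joined together, the lists for oocytes and eggshell, RNA-binding regulators, P granules, meiosis, gonadal innexins and Argonautes held 112 measured genes, of which 52 were higher and none lower. These lists were joined with their counts known. With the lists for proliferation and Notch, sex determination, major sperm proteins and sperm development added, 58 of 190 were higher and 7 lower. Over the 52, the median log2 difference from L1 was 0.19 at L2, 0.54 at L3 and 1.47 at L4. Of these, 51 had their highest value at L4. Only 3 of them were higher at L2 than at L3, against 150 of the 175 cuticle genes. None of the 52 had a value outside its interval. Of the 112, 2 lie on the X chromosome, and neither was called. Among measured protein-coding genes 1947 of 13363 lie on X, and 10.7% of those were higher. With 2 genes no share on X can be read for these lists, whose members were chosen by hand.

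**Figure D3:**
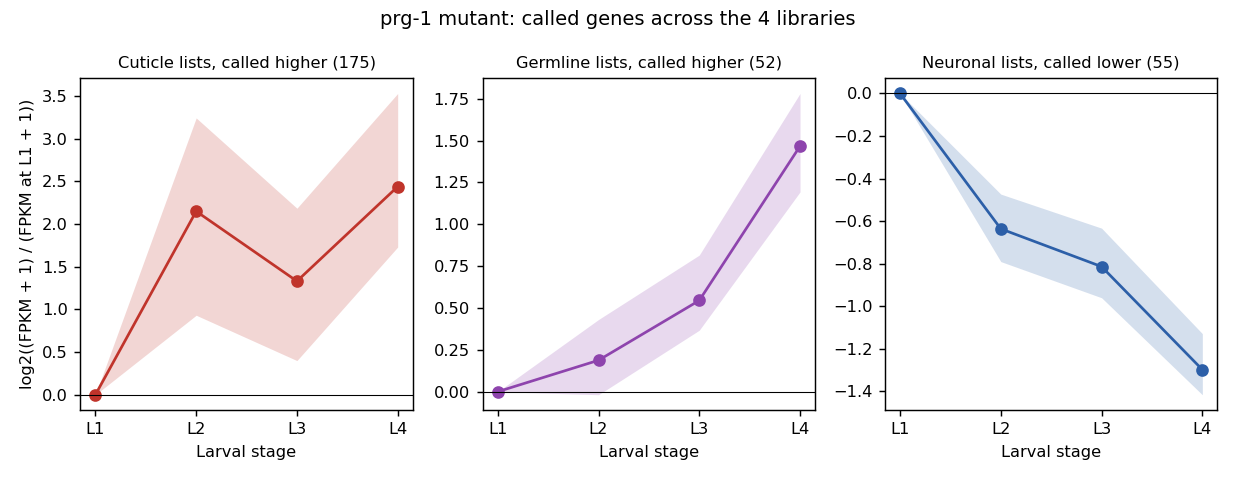
Median log2 difference from L1 on the log2(FPKM + 1) scale (line) and the middle 50% of genes (band) at L1, L2, L3 and L4, for the cuticle genes called higher at L4 (175), the genes called higher in the germline lists joined here (52) and the genes called lower in the lists for neuropeptides, vesicle release, cilia and chemoreceptors (55). The vertical axes differ between panels. The cuticle median is 2.15 at L2, 1.33 at L3 and 2.44 at L4, whereas the germline median is 0.19, 0.54 and 1.47 and the neuronal median -0.64, -0.81 and -1.30 at the same stages.

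Genes for yolk, eggshell and sperm differed in direction. Yolk proteins are made in the intestine and taken up by oocytes, and all 6 of their genes were higher, with a median log2 difference of 3.81. *vit-2* had 67.3 FPKM (64.6 to 70.5) at L4 against 4.53 (3.90 to 5.17) at L1, *vit-6* had 83.3 (80.5 to 87.1) against 6.72 (5.85 to 7.60), and *vit-5* had 33.9 (31.2 to 35.3) against 1.12 (0.826 to 1.40). *vit-1*, *vit-3* and *vit-4* had 19.8, 28.6 and 28.4 FPKM at L4 against 0.633, 0.832 and 0.909 at L1, and reads of near-identical copies may be divided between them. The summed level was 17.7 times as high at L4. It was not lowest at L1, since the sums were 14.7, 1.85, 1.14 and 261 FPKM from L1 to L4. Among 18 genes of the oocyte and eggshell list, all measured, 4 were higher and none lower. The eggshell component *cbd-1* had 14.5 FPKM (13.4 to 15.8) at L4 against 3.68 (3.09 to 4.26) at L1, *perm-4* had 10.2 against 2.49, *egg-5* had 4.92 against 1.62, and *egg-6*, whose product also acts in epithelia outside the gonad, had 18.3 against 8.38. *perm-4* shared the dip between the ends, with 0.160 FPKM at L2 and 0.0773 at L3.

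The major sperm proteins, the cytoskeletal proteins of the crawling sperm, were not higher at L4 in any of 33 measured genes (35 listed), and 6 were lower. Their summed level was 368, 20.6, 7.85 and 165 FPKM from L1 to L4, so that L1 was above every later library. *msp-113* had 4.65 FPKM (2.37 to 7.13) at L4 against 12.2 (8.21 to 16.4) at L1 and *msp-19* had 4.88 (1.49 to 5.58) against 16.7 (7.24 to 13.5). The copies are nearly identical and 21 of the 33 lay outside their intervals. Without those 1 of the 6 remained, and under the median-ratio rescaling 2 did. Of 19 measured genes for sperm development (38 listed) 2 were higher and none lower, with a median log2 difference of -0.08. The share higher, 10.5%, was near the 9.39% over all measured genes. The higher ones were *cpb-1*, at 3.28 FPKM (2.40 to 4.08) against 0.839 (0.464 to 1.18), and *gmeb-4* (*spe-44* in RefSeq), a transcription factor of spermatogenesis. *gmeb-4* had 1.97 FPKM (1.25 to 2.66) against 0.251 (0.0549 to 0.439). The sperm phosphatase *gsp-3* had 1.46 FPKM (0.648 to 2.19) at L4 and 2.28 (1.19 to 3.24) at L1, with 0.105 at L2 and 0 at L3. Yolk and sperm transcripts in the L1 library thus stood above those at L2 and L3. Embryo markers in that library were below 1 FPKM apart from *med-2*. Whether RNA of older worms contributed to the L1 library was not tested.

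The nematode-specific peptide genes *nspa* to *nspe* gave 22 higher and 0 lower of 57 measured (64 listed), but 46 of the 57 had values outside their intervals, and without those 2 were called and the median log2 difference turned to -0.94. The calls came from the *nspb* genes (9 of 12) and the *nspc* genes (13 of 20), and none of the 9 *nspa*, 10 *nspd* and 6 *nspe* genes measured was called. *nspc-15* had 156 FPKM (137 to 176) at L4 against 34.1 (25.3 to 43.2) at L1, with both values inside their intervals.

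Few genes for cell division were called, while histone genes split. None of 38 DNA replication genes was called, with a median log2 difference of -0.41. The L4 interval lay wholly below that at L1 in 18 of them, against 19.3% of all measured genes. The same held in 20 of 61 cell cycle genes and in 14 of 30 chromatin genes of the list given last here. It lay wholly above in 0, 6 and 2 genes of these lists, against 15.8% of all measured genes. *pcn-1*, the sliding clamp, had 57.6 FPKM (52.2 to 62.9) at L4 and 107 (99.0 to 115) at L1. Of 61 cell cycle genes 1 was higher and 2 were lower. The anillin *ani-2*, which stabilises the shared cytoplasm of the germline, had 8.07 FPKM (6.89 to 8.94) at L4 against 2.29 (1.77 to 2.79) at L1. Cyclin D, *cyd-1*, had 12.9 (11.2 to 14.6) against 33.8 (30.7 to 36.9), and the spindle checkpoint gene *mdf-2* had 12.7 against 26.6, a call lost under the median-ratio rescaling. Of 30 chromatin genes of the synMuv and germline group 1 was higher and none lower, and *hda-1* had 50.8 FPKM at L4 and 78.1 at L1.

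Of 68 measured *his* genes (72 listed) 18 were higher and 1 lower, with a median log2 difference of 1.25. Canonical histone messages lack a poly(A) tail, so their level in poly(A) RNA is uncertain, copies are nearly identical, and 35 of the 68 lay outside their intervals. Of the higher genes 6 did not. *his-26* had 41.6 FPKM (11.7 to 22.1) at L4 against 2.96 (0.287 to 4.01) at L1. The replacement variant *his-72*, whose message is polyadenylated, had 208 (193 to 224) against 322 (303 to 343) and was not called. The lower *his* gene was *his-24*, which encodes a linker histone, at 134 FPKM (101 to 118) at L4 against 373 (357 to 392) at L1. The linker histone list, with 7 of 9 measured, held 2 higher and 2 lower genes. *hil-4* and *hil-5* were higher, at 58.1 and 104 FPKM against 12.8 and 29.5, both with values outside their intervals, so that no higher call of this list remained without such genes. *hil-7* was lower, at 4.62 (2.02 to 7.29) against 24.6 (18.7 to 30.5). *his-24* is on that list too and was its other lower gene. *hil-2* (139 and 213 FPKM), *hil-3* (108 and 215) and *hil-1* (6.08 and 6.14) were not called, and *hil-6* and *hil-8* were below 1 FPKM.

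**Figure D4:**
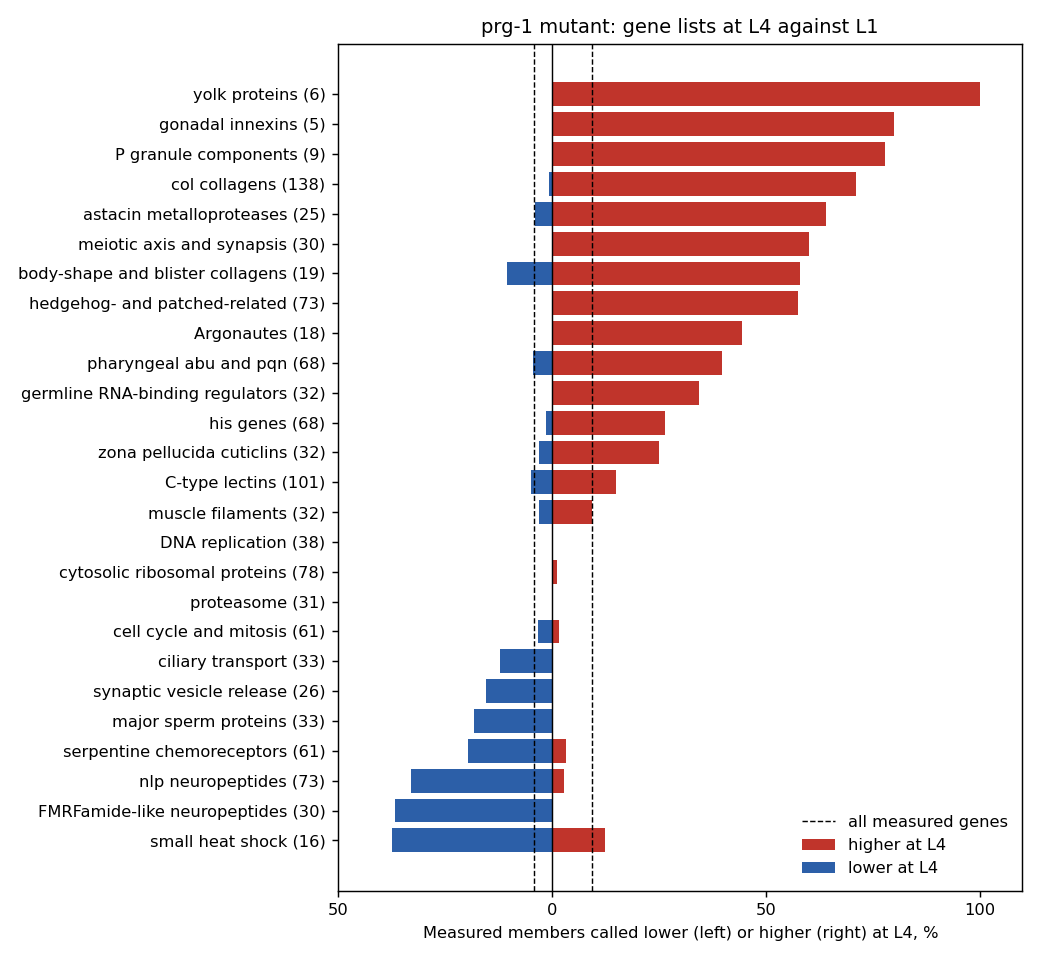
Share of the measured members of 26 of the gene lists called higher (red, to the right) or lower (blue, to the left) at L4, in percent, with the number measured in parentheses. Dashed lines mark the shares over all 15655 measured genes, 9.39% higher and 4.28% lower. Yolk, gonadal, germline and cuticle lists extend to the right, neuropeptide, chemoreceptor, ciliary and small heat shock lists to the left, and DNA replication and proteasome have no bar.

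Of 16 heterochronic genes, all measured, 4 were higher, 2 lower and 10 not called. The early-acting RNA-binding protein gene *lin-28* had 13.8 FPKM (11.4 to 16.2) at L4 against 81.0 (74.6 to 87.6) at L1, a log2 difference of -2.47, and its values were 81.0, 25.2, 19.7 and 13.8 FPKM from L1 to L4. *lin-14*, the nuclear protein that specifies L1 fates, had 19.2 (17.0 to 21.4) against 45.4 (41.7 to 49.0). The late-acting zinc finger gene *lin-29*, which drives the larval-to-adult switch, had 19.4 FPKM (17.4 to 21.3) at L4 against 2.62 (1.91 to 3.36) at L1. Its cofactor *mab-10* had 15.7 (12.6 to 16.9) against 2.98 (2.08 to 3.86), and *lin-46* had 6.93 (4.96 to 8.19) against 1.30 (0.719 to 1.83). *lin-42*, the Period-related gene whose message cycles with the molts, had 308 FPKM at L4 and 106 at L1, with 402 at L2 and 261 at L3.

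Between these ends, *lin-41* (38.8 FPKM at L4 and 51.9 at L1) and *hbl-1* (14.3 and 25.4) were lower in value at L4 but did not reach the size of the rule, and the hormone receptor *daf-12* (72.0 and 38.7) was higher in value and did not reach it either. *let-7* is listed as a gene at 47.6 and 100.2 FPKM, far outside its intervals of 0 to 6.01 and 0 to 8.13, so no direction is drawn from it. A gene outside the list was singled out after its values were seen, H36L18.2, the long non-coding RNA that RefSeq names *lep-5* and that acts in heterochronic timing in the worm. It had 12.5, 24.2, 168 and 375 FPKM from L1 to L4, with intervals of 354 to 398 at L4 and 9.04 to 15.9 at L1 and a log2 difference of 4.80.

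Most patterning genes were not called, as held for most measured genes, of which 9.39% were higher and 4.28% lower. None of 28 genes for vulva, uterus and anchor cell was called, with a median log2 difference of -0.28. *let-60*, the worm Ras, had 64.4 FPKM at L4 and 89.6 at L1, and *sqv-4*, an enzyme for the proteoglycans of the vulval lumen, had 40.4 (36.8 to 44.0) against 19.9 (17.6 to 22.3), just short of the rule and past it under the median-ratio rescaling. Of the Hox genes and cofactors, 9 of 10 measured, *ceh-60* was higher, at 2.89 FPKM (1.89 to 3.88) against 0.475 (0.0949 to 0.949), and *mab-5* was lower, at 4.62 (2.80 to 5.77) against 10.6 (7.11 to 11.8), a call lost under the median-ratio rescaling. *lin-39*, *ceh-13*, *egl-5*, *php-3* and *nob-1* had 13.6, 12.8, 4.01, 8.47 and 5.72 FPKM at L4 against 20.8, 22.6, 5.88, 12.4 and 7.46 at L1. The cofactors *unc-62* (44.4 and 75.3 FPKM) and *ceh-20* (26.8 and 54.2) were lower in value without a call, and *ceh-40* was below 1 FPKM. Of 194 measured nuclear hormone receptors (290 listed) 2 were higher (1.03%) and 7 lower (3.61%). *nhr-41* had 23.0 FPKM at L4 and 10.8 at L1 and *nhr-155* had 2.49 and 0.410, while *nhr-7* had 5.25 and 17.2.

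Neuronal genes were mostly lower at L4 where they were called. Neuropeptides are cut from precursors, amidated and released from dense-core vesicles. Of 30 measured FMRFamide-like peptide genes (31 listed) 11 were lower and none higher, against 4.28% lower over all measured genes, with a median log2 difference of -0.88. *flp-1* had 94.8 FPKM (85.1 to 104) at L4 against 256 (238 to 274) at L1. *flp-15* had 25.0 against 84.9 and *flp-21* had 16.8 against 49.6, both outside their intervals, and 2 of the 11 remained without such genes. *flp-11* (66.3 and 130.1 FPKM) and *flp-24* (93.2 and 162) fell short of the rule. None of the 11 reached 4-fold.

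Of 73 measured *nlp* genes (81 listed) 24 were lower and 2 higher, with a median log2 difference of -0.87. H05L03.3, which RefSeq names *nlp-49*, had 139.7 FPKM (128 to 152) at L4 against 462 (437 to 489) at L1. *nlp-7* had 2.89 (1.03 to 4.94) against 13.8 (9.93 to 18.0), and *nlp-17* had 24.8 against 89.4. Without genes outside their intervals 11 of the 24 remained. The higher members were *nlp-24*, at 436 FPKM against 127, and *nlp-33*, at 116 against 45.1; *nlp-33* encodes an antimicrobial peptide of the epidermis. The most abundant member, *nlp-40*, which is secreted by the intestine, had 345 FPKM and 424 and was not called.

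Of 26 genes of vesicle release and peptide processing 4 were lower, none was higher and 22 were not called, among the lower ones genes that process neuropeptides. The proprotein convertase *egl-3* had 172 FPKM (166 to 180.3) at L4 against 375 (368 to 389) at L1, the carboxypeptidase *egl-21* had 125 (118 to 132) against 290.3 (282 to 303), and the convertase chaperone *sbt-1* had 187 (175 to 199) against 418 (398 to 439). Synaptobrevin, *snb-1*, had 191 and 256 FPKM and was not called. *unc-31*, which primes dense-core vesicles, was listed at 2412 FPKM at L1 with an interval of 4.14 to 11402, against 6.80 (2.06 to 11.6) at L4, so its L1 value has no useful precision. Without it the list summed to 1247 FPKM at L4 and 2154 at L1. None of 18 measured genes for small neurotransmitters (19 listed) was called, among them *unc-25*, for GABA synthesis, with 17.9 FPKM (15.6 to 20.1) at L4 and 12.5 (10.6 to 14.3) at L1, and *unc-17*, the acetylcholine transporter, with 11.9 and 18.3.

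Ciliary transport genes, used in sensory endings, gave 4 lower (12.1%) and 0 higher of 33 measured (38 listed). Over all measured genes 4.28% were lower and 9.39% higher. *klp-11*, a kinesin-II motor, had 14.9 FPKM (12.9 to 16.9) at L4 against 31.7 (28.6 to 34.8) at L1, *che-12* had 1.15 (0.722 to 1.59) against 5.95, and *osm-5* and *bbs-9* had 0.865 and 0.669 against 2.88 and 2.47. With a pseudocount of 0.1 the count lower was 18, and under the scalings it was 2 on the TPM scale and 1 with the median ratio. The median level of the members was 1.12 FPKM at L4 and 2.43 at L1. Of 1639 serpentine chemoreceptor genes only 61 were measured, and 12 were lower (19.7%) and 2 higher (3.28%). *srw-85* had 16.6 FPKM at L4 and 41.6 at L1, *srr-4* had 12.5 and 34.5, and *srm-3* was higher, with 4.07 and 0.390. Of 50 measured *acr* and *lgc* channel genes (83 listed) 3 were higher (6%) and 2 lower (4%), both below the shares over all measured genes. The higher ones were *lgc-22*, at 88.1 FPKM (82.3 to 94.1) against 8.02 (6.41 to 9.62), *lgc-27*, at 37.4 against 8.10, and *lgc-21*, at 19.9 against 1.10. All 3 were higher at L2 than at L3, as were 56.9% of the genes called higher with the status OK in all libraries. *lgc-4* and *ggr-1* were lower, at 0.411 and 0.757 against 2.96 and 2.64.

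Joined together, the lists for neuropeptides, vesicle release, cilia and chemoreceptors held 223 measured genes, of which 55 were lower and 4 higher, and they supplied 8.21% of all genes called lower. With the neurotransmitter and channel lists added, 57 of 291 were lower and 7 higher. Over the 55, the median log2 difference from L1 was -0.64 at L2, -0.81 at L3 and -1.30 at L4. Of these, 52 had their lowest value at L4, as did 90.4% of all genes called lower. In 23 of the 55 a value lay outside its interval. The median at L4 was the same as that of all genes called lower, -1.30.

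Of the genes called lower 13 had a log2 difference of -4 or below, and none of those has a symbol. Those with a symbol and the largest differences came from several families. *cpr-2*, a cathepsin B-like protease gene, had 3.32 FPKM (1.91 to 4.49) at L4 against 50.9 (37.7 to 47.8) at L1, 15.3 times as high at L1. *hlh-3*, a proneural transcription factor gene of the achaete-scute type, had 13.5, 4.19, 0.701 and 0.552 FPKM from L1 to L4 and intervals of 0.104 to 0.933 at L4 and 8.52 to 14.0 at L1. The bZIP gene *zip-8* had 2.19 FPKM (0.303 to 4.18) against 23.5 (17.4 to 29.7), the antimicrobial peptide gene *cnc-2* had 1.10 against 17.9, and the caveolin gene *cav-1* had 1.40 (0.534 to 2.28) against 16.4 (13.3 to 19.5). *cav-1* peaked at L2, with 25.8 FPKM. The non-coding *linc-37* was listed at 0 at L4 and had 5.27 FPKM at L1. R05A10.1, a gene without a symbol singled out after its values were seen, had 1.70 FPKM (0.826 to 2.57) against 50.6 (45.6 to 55.5).

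Heat-inducible chaperones stood out among these genes. Of 16 small heat shock genes, all measured, 6 were lower and 2 higher, and the 6 were all of the *hsp-16* genes listed. *hsp-16.1* had 11.8 FPKM (4.46 to 10.7) at L4 against 72.2 (33.9 to 49.2) at L1, *hsp-16.48* had 3.72 (0.983 to 4.72) against 42.5 (19.0 to 30.4), and *hsp-16.49* had 5.59 (1.77 to 5.90) against 48.2 (21.7 to 33.7). *hsp-16.41* had 0.223 (0 to 0.436) against 7.51 (3.52 to 8.26). *hsp-16.2* and *hsp-16.11* had 1.09 and 10.5 FPKM against 10.6 and 59.3. The summed level of the 6 was 32.9 FPKM at L4 and 240.4 at L1. Several are near-identical pairs and 4 of the 6 lay outside their intervals, but the intervals of the stages did not overlap for any of them. The inducible HSP70 genes F44E5.4 and F44E5.5, also singled out after their values were seen and near-identical to each other, had 5.97 and 5.89 FPKM at L4 against 74.0 and 78.3 at L1. The constitutive members *hsp-25* (234 and 233 FPKM), *hsp-17* (105 and 155) and *hsp-12.2* (65.7 and 90.3) were not called, and *sip-1* and *hsp-12.1* were higher, at 96.8 and 15.2 against 31.4 and 1.93. With 1 library per stage, what is particular to the L1 library and the stage itself cannot be told apart.

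Shares called in the muscle and basement membrane lists were at or below those over all measured genes (9.39% higher, 4.28% lower). Of 32 measured muscle filament genes (33 listed) 3 were higher (9.38%) and 1 lower. Without a minimum size, the L4 interval lay wholly above that at L1 in 21 of these abundant genes and wholly below in 10. Over all measured genes these shares were 15.8% and 19.3%. The troponin T gene *tnt-2* had 901 FPKM (892 to 932) at L4 against 363 (352 to 379) at L1, the troponin I gene *unc-27* had 578 against 259.8, and alpha-actinin, *atn-1*, had 90.8 against 43.4. Another troponin I gene, *tni-1*, was lower, at 119 against 247, a call lost under the median-ratio rescaling. Of 20 basement membrane genes 1 was higher, the laminin chain *lam-3*, at 3.30 FPKM (2.94 to 3.66) against 0.899 (0.719 to 1.08), while type IV collagen *emb-9* had 194 and 166. Of 15 measured genes of intestinal identity and the brush border (18 listed) 1 was higher, the metallothionein *mtl-2*, at 106 against 33.8, outside its intervals, and the intestinal actin *act-5* had 1227 and 1521. Of 21 measured intestinal proteases (27 listed) 4 were higher (19%) and 2 lower (9.52%), and both lower ones had values outside their intervals. The cathepsin genes *cpl-1* and *cpr-4* had 868 and 1013 FPKM at L4 against 368 and 465 at L1, and the aspartic protease *asp-1*, the most abundant, had 6593 and 6134.

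The metabolic lists held calls at differing shares, against 9.39% higher and 4.28% lower over all measured genes. The fatty acid and retinol binding genes gave 4 higher (23.5%) and 1 lower of 17. *far-2* had 1510.4 FPKM (1470.2 to 1568) at L4 against 157 (145 to 169) at L1, 9.60 times as high, and *far-3* had 175 (162 to 188) against 18.7 (14.8 to 22.6). *far-6* was higher as well, at 52.7 against 11.5, *far-1* was abundant in both libraries, at 2251 and 1982, and *lbp-8* was lower, at 31.6 against 73.1. For *far-2* the stage values were 157, 188, 408 and 1510.4 FPKM from L1 to L4. Of 37 measured genes for fatty acid synthesis and desaturation (47 listed) 7 were higher (18.9%) and none lower, among them the desaturase *fat-5*, at 26.3 FPKM (22.9 to 28.0) against 6.71 (5.52 to 7.89), and the elongase *elo-4*, at 23.6 against 2.24. In the list for glycolysis, gluconeogenesis and the glyoxylate cycle, 1 of 22 measured (23 listed) was higher, the glyoxylate enzyme *icl-1*, at 136 FPKM (133 to 142) against 32.8 (30.4 to 35.1).

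Of 66 measured cytochrome P450 genes (83 listed) 8 were higher (12.1%) and 1 lower. *daf-9*, which makes the dafachronic acid hormones that bind DAF-12, had 7.90 FPKM (6.60 to 9.21) at L4 against 0.690 (0.266 to 1.12) at L1, with 1.95 at L2 and 8.50 at L3. *cyp-37A1* had 24.0 against 6.31, and *cyp-13A5* was lower, at 14.1 against 41.4. Of 93 measured glucuronosyl and glutathione transferases (116 listed) 10 were higher (10.8%) and 6 lower (6.45%), *gst-10* at 519 FPKM against 210.0 and *ugt-57* at 16.6 against 46.6 among them. Of 25 measured insulin-like peptide genes (40 listed) 4 were higher (16%) and 5 lower (20%). *ins-33* had 49.3 FPKM at L4 against 3.97 at L1 and *ins-4* had 14.8 against 0.961, and all 4 higher members lay outside their intervals. *ins-1* had 4.75 FPKM (2.57 to 5.88) against 16.2 (10.2 to 16.2) and *ins-3* had 1.11 (0.289 to 1.88) against 4.89 (2.13 to 5.78), with values inside their intervals.

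The lists for protein synthesis and turnover held few calls, but many members were lower at L4 by less than the size of the rule. The L4 interval lay wholly below that at L1 in 72 of 78 cytosolic ribosomal protein genes, 21 of 31 proteasome genes and 28 of 74 translation genes. It did so in 1 of 67 mitochondrial ribosomal protein genes and in 19.3% of all measured genes. Abundant genes have relatively narrow intervals that stand apart at small differences, so these shares are not like for like. The median cytosolic ribosomal protein gene had 2257 FPKM at L4. Of 78 measured cytosolic ribosomal protein genes (82 listed) 1 was higher and none lower, with a median log2 difference of -0.34. *rpl-24.1* had 5937 FPKM (5913 to 6121) at L4 and 8173 (8169 to 8416) at L1, apart in their intervals and below the size of the rule. The exception was *rpl-11.1*, at 443 FPKM (420.2 to 467) against 133 (121 to 144). None of 67 mitochondrial ribosomal protein genes was called, with a median of 0.02, nor any of 31 proteasome genes, with a median of -0.28. Of 74 measured translation factors and tRNA synthetases (77 listed) 2 were higher, both of them germline forms. *iff-1*, the germline eIF5A, had 33.3 FPKM (27.1 to 39.5) at L4 against 6.97 (3.79 to 10.2) at L1, and the eIF4E form *ife-5* had 3.21 (1.89 to 4.53) against 0.987 (0.269 to 1.79), a call lost on the TPM scale.

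Across all genes the course between the ends differed with direction. Of 1469 higher genes with the status OK in all 4 libraries, 418 (28.5%) stood in stage order, 888 (60.4%) were highest at L4 and 836 (56.9%) were higher at L2 than at L3. The largest of the 3 steps was that between L1 and L2 for 805 of them, between L2 and L3 for 188 and between L3 and L4 for 476. Of the 670 lower genes 422 (63%) stood in stage order and 606 (90.4%) were lowest at L4. The largest step was between L1 and L2 for 346, between L2 and L3 for 130 and between L3 and L4 for 194.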

How the data were processed

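The 4 mRNA libraries come from whole *prg-1* mutant worms at L1, L2, L3 and L4, with 1 library per stage, and samples were grouped by the stage in their labels. According to the submitters' processing notes the authors mapped reads with TopHat2 (2.0.8), estimated expression with Cufflinks (2.1.1) and worked on build ce10. How multiply mapped reads were assigned, whether strand was used and which annotation release was taken is not stated in the labels or methods. The deposited values are FPKM per gene, which the authors' program scales by transcript length and by the mapped fragments of a library, with a 95% interval and a status. FPKM holds no fragment counts, so no count model was fitted. A fragment shared by similar or overlapping genes can raise or lower either, which bears on collagens, histones, major sperm proteins, yolk genes, heat shock pairs and non-coding genes that lie over coding ones.

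Rows of the L4 and L1 libraries were joined on gene identifier and position with Python (3.11.15), numpy (2.4.6) and pandas (2.3.3), and plots were drawn with matplotlib (3.10.9). A call asked for an FPKM of at least 1 in one stage, a log2 difference of at least 1 with a pseudocount of 1, and intervals that did not overlap. The comparison is across 2 libraries, so calls describe those libraries. Lists of members were matched by symbol, with RefSeq symbols where they differ, giving 59 lists. Named genes are *prg-1*, *prg-2*, the 10 largest log2 differences with a symbol in each direction, the 5 highest genes of each stage, and for each list up to 4 members by mean level, up to 3 called members in each direction, and every member of lists of 12 or fewer. Marker genes, and genes said to be singled out, stand outside that rule. The genes, lists and alternatives were chosen with earlier results of these data known. Alternatives were a pseudocount of 0.1, a minimum of 5 FPKM and none, TPM and median-ratio scaling, no use of intervals, a 4-fold rule, genes outside their own interval left out, and protein-coding genes only. The steps were tested on simulated data. No sequence is shown, as no genome was used here.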

Additional observations from a re-analysis of the deposited data

How the results depend on the processing

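No paired analysis was possible because a stage is 1 library. Against 1470 genes higher and 670 lower at L4, a 4-fold rule left 576 and 81, and the rule without intervals gave 2171 and 1522. Over the other alternatives the counts ranged between 1073 and 1656 higher and between 487 and 958 lower. All 1470 higher genes stayed called higher with a pseudocount of 0.1 (1656 in all) and under the median-ratio scaling (1616), which kept 510 of the 670 lower genes. On the TPM scale 1347 of the 1470 and 617 of the 670 remained.

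Medians of some lists changed sign, most of them small, though those of gonadal innexins, male markers and *nspa* to *nspe* were not. With a minimum of 5 FPKM the median log2 difference was -0.047 for germline proliferation and Notch (0.11 as reported), -0.38 for gonadal innexins (1.11, with 1 gene left), -0.041 for sex determination (0.08), 0.019 for insulin-like peptides (-0.45), 0.15 for *acr* and *lgc* channels (-0.26), -0.00381 for *fbxa* genes (0.08), -0.053 for MATH and BATH genes (0.37) and -0.064 for male markers (0.72). Without a filter it was 0.012 for *abu* and *pqn* genes (-0.11) and -0.013 for male markers. On the TPM scale it was -0.00567 for mitochondrial ribosomal proteins (0.02). For the heterochronic genes (-0.08) it was 0.022 under the median-ratio scaling and 0.077 over protein-coding genes. For *nspa* to *nspe* (1.46) it was -0.94 without genes outside their intervals. Of 406 named genes measured, 9 lost their call and 2 gained one on the TPM scale, and 16 lost and 2 gained one under the median-ratio scaling. No named gene that was called changed direction under any alternative. Changes of sign among named genes without a call were not counted. The precision within a library is that of the deposited intervals, and the spread between cultures could not be estimated.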

Other observations

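Immune and secreted protein families of the gut and epidermis held calls in both directions, as did all measured genes, at 9.39% higher and 4.28% lower. Of 10 measured lysozyme genes (16 listed) 5 were higher at L4 (50%) and 1 was lower (10%), with a median log2 difference of 0.84. *lys-4* had 107 FPKM (71.7 to 88.0) at L4 against 19.6 (12.1 to 19.0) at L1, *ilys-5* had 116 (104 to 127) against 23.2 (18.2 to 28.2), and *lys-3* was lower, at 0.829 against 3.49. The most abundant lysozyme, *lys-1*, had 768 and 732. Of 101 measured C-type lectin genes (265 listed) 15 were higher (14.9%) and 5 lower (4.95%). *clec-60* and *clec-61*, neighbours on chromosome II, had 6.66 and 8.64 FPKM at L4 against 0.245 and 0.337 at L1, and *clec-210* was lower, at 1.30 against 7.41. Among superoxide dismutases, catalases, peroxidases and metallothioneins 4 of 25 measured (26 listed) were higher (16%) and 1 was lower (4%). *sod-3* had 26.2 FPKM (22.4 to 30.0) at L4 against 7.11 (5.12 to 9.10) at L1, *mtl-1* had 216 against 45.4, and the glutathione peroxidase *gpx-3* was lower, at 16.5 against 53.9, and 3 of the 4 higher members and *gpx-3* had values outside their intervals. Of 48 measured transthyretin-like genes (59 listed) 6 were higher (12.5%), 3 of them with values outside their intervals, and 1 lower (2.08%). *ttr-44* had 221 FPKM against 82.8 and *ttr-21* had 10.4 against 26.7. Of the expanded families for substrate-specific protein turnover, *fbxa* F-box genes gave 11 higher (10.1%) and 4 lower (3.67%) of 109 measured (222 listed), close to the 9.39% and 4.28% over all measured genes, and MATH and BATH genes gave 11 higher and 0 lower of 50 measured (93 listed), with *fbxa-72*, outside its interval, at 28.6 FPKM against 3.17 and *math-37* at 6.94 against 1.13.

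The calls were spread unevenly over the genome. Over the measured protein-coding genes of each chromosome the share higher was 14.1% on V, 11.1% on II, 10.7% on X, 10.3% on IV, 8.91% on I and 5.75% on III, with none of 12 mitochondrial genes called. Neighbouring genes were called together in 67 runs of 3 or more measured protein-coding genes in a row higher and 8 lower. The longest was 8 genes between positions 2318525 and 2333686 of chromosome V (ce10), ending with *irld-32*, and a run of 7 held *pqn-63* and *col-146*. The lower runs included *hsp-16.1*, *hsp-16.48*, *hsp-16.49* and *hsp-16.11*, between 9087293 and 9090604 of chromosome V.

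Of the 20 genes with the largest log2 difference in favour of L4, 15 were not protein-coding, and all 15 overlapped a protein-coding gene. K12D12.9, a non-coding gene over *col-84* and *npp-3*, was listed at 0 at L1. It had 584 FPKM at L4, far above its own interval of 25.9 to 48.8. C47G2.21 over *cut-1* had 1562 against 18.3, C18H7.14 over *col-102* had 2831 against 38.7, and T27A10.8 over *vit-3* had 311 against 1.32. Reads of such pairs cannot be told apart here, as use of strand is not stated. Over all measured genes of other types 74 were called higher and 37 lower, and 30 of the higher and 5 of the lower ones overlapped a coding gene called the same way. F45D11.14, F45D11.15 and F45D11.16 on chromosome II carry nearly or exactly the same values, 327, 325 and 325 FPKM at L4 against 10.7, 10.8 and 10.8 at L1. Their L4 values all lay above their own intervals. The highest FPKM values of both libraries belonged to short non-coding genes, F56D12.10 with 38006 at L4 and 45299.5 at L1, and the 6 genes that made up the highest 5 of either library held no call. All of these genes were singled out after their values were seen, apart from those 6.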
